A study of Mus musculus with 12 samples.

Results

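Ribosome biogenesis genes, which encode the proteins that transcribe, cut, modify and fold ribosomal RNA and build it into subunits, were followed in mouse PUER cells before and after activation of the transcription factor PU.1. The set held 56 genes, taken by name from the known assembly steps, out of 19644 genes with a feature of 1 gene symbol on at least 1 of the 2 array designs. Of the 56, 54 were measured on the Mouse Genome 430 2.0 arrays, 47 on the Mouse Exon 1.0 ST arrays and 46 on both. Npm3 had no feature of its own on either design. Mrto4 was measured only on the exon arrays, and Npm1, Fbl, Dkc1, Utp18, Wdr43, Wdr75, Ddx18 and Noc2l only on the 430 arrays.

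PUER cells are a myeloid progenitor line from fetal liver without a PU.1 gene of its own, into which a fusion of PU.1 with the ligand-binding domain of the estrogen receptor was placed. The ligand 4-hydroxytamoxifen (OHT) activates the fusion as a protein, so the level of its RNA does not check the labels. The 4 groups of 3 arrays were 0 h, described as cells without PU.1 expression, and 24 h, described as cells after induction with 100 nM OHT, on each design. All groups shared the fusion gene and a medium with interleukin-3 at 5 ng/ml and puromycin. The study used 1 line, and the labels do not say whether the arrays of a group are separate cultures. All p-values therefore reflect the spread among these arrays, possibly technical alone.

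Ribosomes are assembled in the nucleolus, where RNA polymerase I makes a long precursor RNA. Small nucleolar RNPs of the box C/D class guide methylation and those of the box H/ACA class guide pseudouridylation, the small-subunit processome folds and cuts the precursor, and separate sets of factors mature each subunit and carry it to the cytoplasm. The pathway consumes a large part of a growing cell's energy, many of its genes are known targets of MYC, and progenitors that leave the cell cycle are known to reduce it.

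The designs ran in opposite directions between their labels. Across the 13356 genes on both, the 430 change and the exon change correlated at Pearson r = -0.86 and Spearman rho = -0.72, as a description over genes that share arrays. All 6 macrophage markers measured were higher on the 430 arrays labelled 24 h, where their summed linear signal ran from 41592 to 42141 against 7455 to 7987 at 0 h, and all 5 measured were lower on the exon arrays labelled 24 h (316 to 361 against 2881 to 3071). The marker with the largest 430 change, Ptprc (9.38), lay below the array medians (5.78 to 5.87) at 0 h, since no 430 value exceeded 15.02. The values do not settle which labels hold; if the exon labels were exchanged, all exon changes given here would have the sign turned and the size kept. Arrays of 1 group correlated at 0.997 to 0.998 on the 430 design and at 0.985 to 0.989 on the exon design. Changes are log2 differences, arrays labelled 24 h minus arrays labelled 0 h, ± limma's standard error, and a gene was called at an adjusted p under 0.05. In RNA from whole cultures, fewer cells of a type and less RNA per cell cannot be told apart.

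Promoter sequences are shown for the members with the CACGTG motif and the largest changes on the 430 arrays, because this E-box is the sequence that MYC and MAX bind and the pathway's best-known shared element. The motif, which is its own reverse complement, was searched from 250 bases before to 50 bases after the RefSeq start site. It stood in 11 of the 49 members with an entry (22.4%): Grwd1, Imp4, Ltv1, Mybbp1a, Nle1, Nop2, Pes1, Tsr1, Utp18, Utp20 and Wdr43. Of all 27025 genes with an entry, 8.09% held it. Sequences are credited to RefSeq, assembly GRCm38.p6, and are read 5′ to 3′ on the gene's strand with the motif in capitals.
Grwd1: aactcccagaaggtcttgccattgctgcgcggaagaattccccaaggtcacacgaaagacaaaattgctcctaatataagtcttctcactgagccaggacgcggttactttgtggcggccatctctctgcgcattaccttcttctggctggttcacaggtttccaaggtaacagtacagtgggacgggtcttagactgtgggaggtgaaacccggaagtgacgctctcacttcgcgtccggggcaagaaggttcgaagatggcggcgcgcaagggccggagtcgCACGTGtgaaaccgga
Nop2: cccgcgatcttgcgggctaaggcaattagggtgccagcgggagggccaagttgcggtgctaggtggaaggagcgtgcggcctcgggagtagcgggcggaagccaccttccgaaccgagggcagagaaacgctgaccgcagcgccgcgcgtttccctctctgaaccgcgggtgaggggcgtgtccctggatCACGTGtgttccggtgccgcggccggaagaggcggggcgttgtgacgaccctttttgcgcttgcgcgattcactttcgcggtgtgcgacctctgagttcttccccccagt
Tsr1: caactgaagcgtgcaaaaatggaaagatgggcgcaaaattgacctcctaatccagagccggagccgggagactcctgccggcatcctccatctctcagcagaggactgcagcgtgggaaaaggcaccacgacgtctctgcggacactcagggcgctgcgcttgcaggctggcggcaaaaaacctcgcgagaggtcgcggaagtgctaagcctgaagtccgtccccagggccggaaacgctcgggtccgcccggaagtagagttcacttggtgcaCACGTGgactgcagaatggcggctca
Nle1: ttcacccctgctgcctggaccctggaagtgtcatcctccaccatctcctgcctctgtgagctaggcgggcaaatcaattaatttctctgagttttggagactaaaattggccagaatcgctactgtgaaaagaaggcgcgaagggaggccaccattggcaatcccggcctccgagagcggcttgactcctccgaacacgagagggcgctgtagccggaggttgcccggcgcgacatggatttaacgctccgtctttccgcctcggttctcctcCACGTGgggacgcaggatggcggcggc

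The Grwd1 window is chr7:45830740-45831039, on the minus strand, with the motif beginning 35 bases after the start site. The Nop2 window is chr6:125131633-125131932, on the plus strand, with the motif at position -60. The Tsr1 window is chr11:74897830-74898129, on the plus strand, with the motif at +25, and the Nle1 window is chr11:82908346-82908645, on the minus strand, with the motif at +24. In 8 of the 11 members (72.7%) the motif began after the start site, against 13.2% of the 2349 promoters with the motif in the whole table. Members with the motif had a median change of -1.31 on the 430 arrays (n = 11) and the other members with an entry -1.02 (n = 36); on the exon arrays the medians were 1.09 (n = 9) and 1.08 (n = 33). GAGGAA, the core of many PU.1 sites, searched on both strands as GAGGAA or TTCCTC, stood in 17 of 49 members (34.7%) and in 31.3% of all genes. A match is a string of letters, not a measured site. Bop1, Fbl, Gnl2, Npm1, Rrp12, Rrs1 and Tcof1 had no entry.

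As a set, the members were lower on the 430 arrays labelled 24 h and higher on the exon arrays labelled 24 h. On the 430 design 50 of 54 (92.6%) were called lower, where 26.1% of all genes were called lower, and only Heatr1 was called higher, where 26.0% of all genes were. The median change was -1.04, or 2.06-fold lower, against 0.06 over all genes, and 5.02% of all genes changed by as much or more downward. Called folds ran from 1.30 to 4.83, and 30 members fell at least 2-fold (5.41% of all genes did so; 4.34% rose at least 2-fold). For 50 members all 3 values of the 24 h group lay below all 3 of the 0 h group, as for 29.0% of all genes.

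On the exon design 40 of 47 (85.1%) were called higher against 19.3% of all genes, and only Heatr1 was called lower, against 10.8% of all genes. The median change was 1.08, or 2.11-fold, against 0.01 over all genes, and 4.03% of all genes rose by as much or more. Folds of the members called higher ran from 1.38 to 4.13, and 27 members rose at least 2-fold (4.92% of all genes did so; 3.74% fell at least 2-fold). The groups did not overlap, with the 24 h values higher, for 42 members and for 27.6% of all genes. The SD of a member within a group of 3 arrays ran from 0.01 to 0.18 log2 units on the 430 design and from 0.02 to 0.49 on the exon design.

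**Figure D1:**
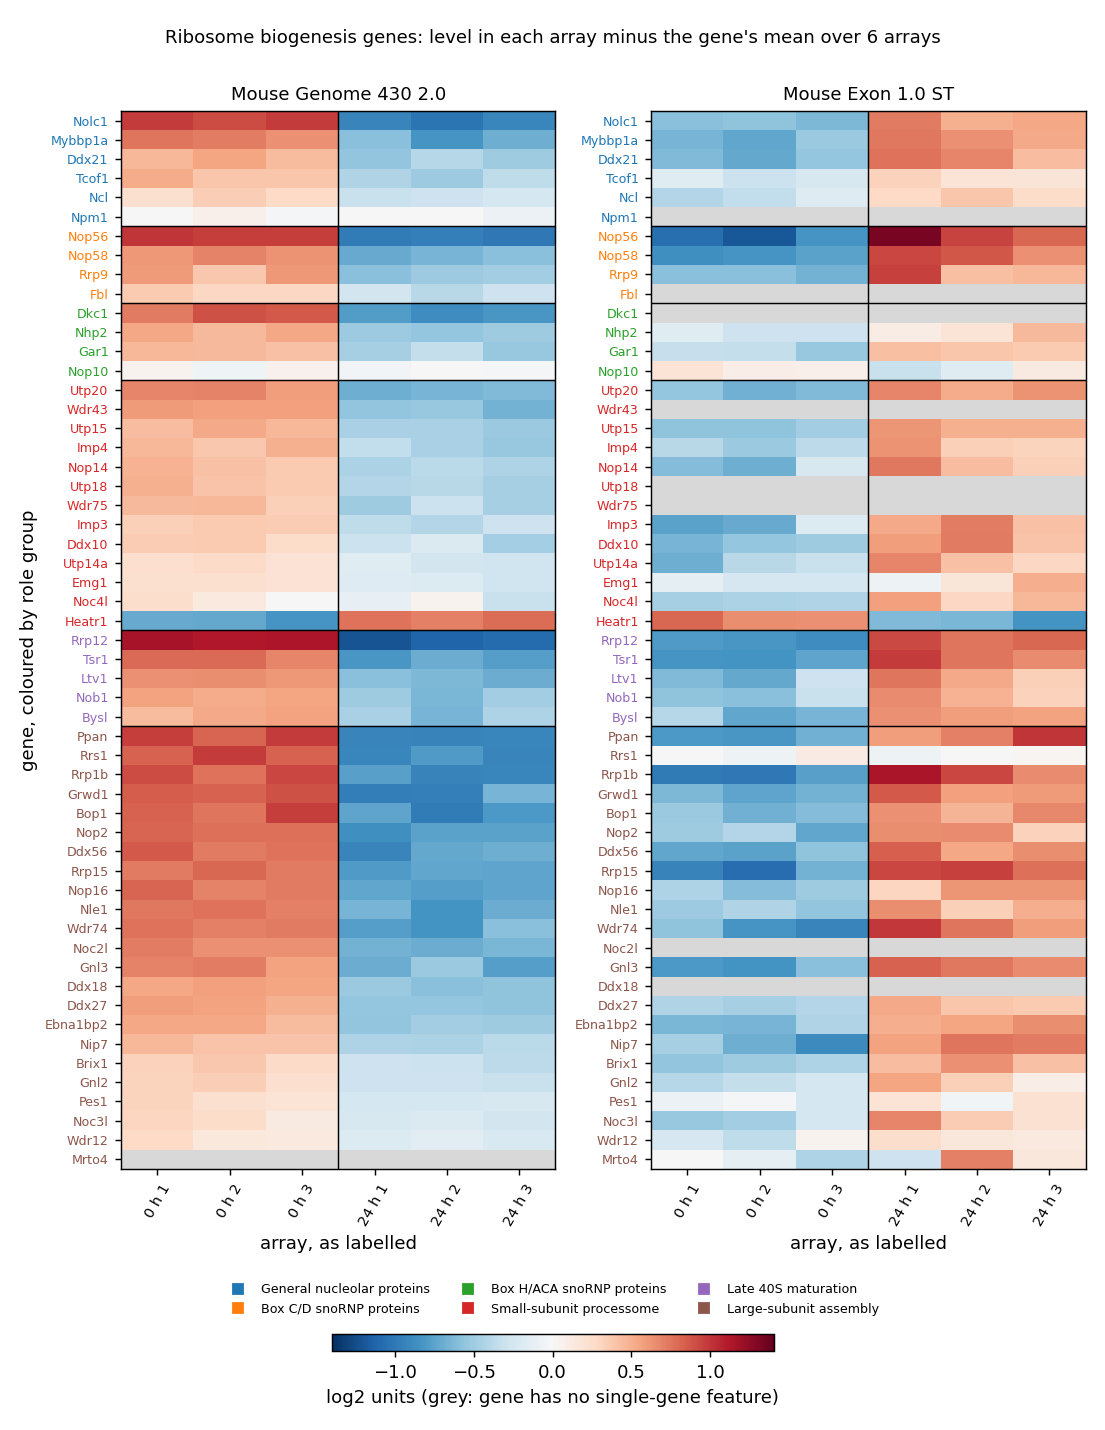
Level of each measured ribosome biogenesis gene in each array, as log2 units above (red) or below (blue) the gene's own mean over the 6 arrays of a design, with genes grouped by role and grey for genes not measured. On the 430 arrays 50 of 54 genes are red at 0 h and blue at 24 h without overlap, 42 of 47 are the other way on the exon arrays, and Heatr1 runs against the rest on both designs.

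**Figure D2:**
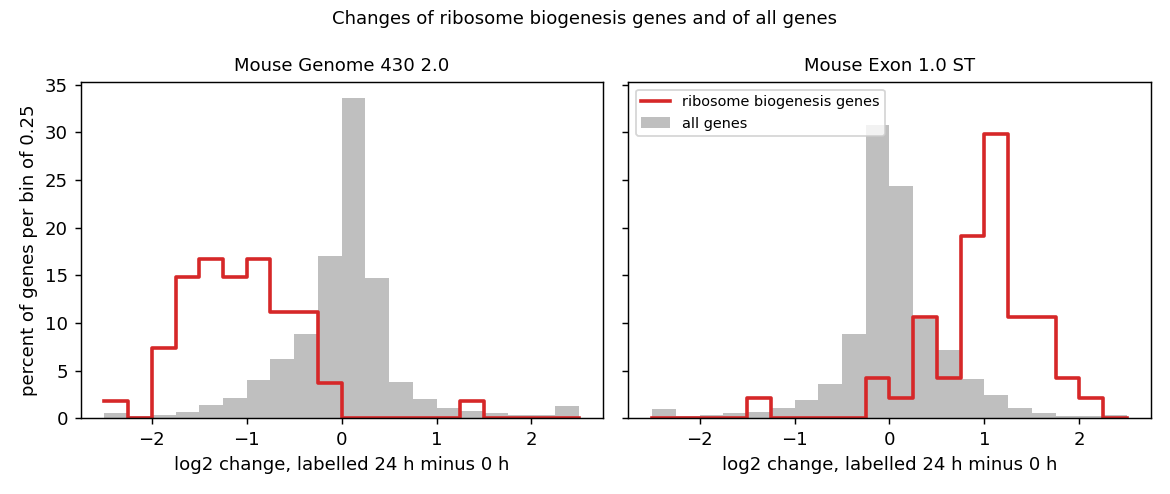
Percent of genes in each bin of log2 change (width 0.25, end bins holding all larger changes) for all genes (grey bars) and for the ribosome biogenesis genes (red line) on each design. All genes centre near 0 (medians 0.06 and 0.01), whereas the members centre at -1.04 on the 430 arrays and at 1.08 on the exon arrays.

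Among the general nucleolar proteins, 5 of 6 were lower on the 430 arrays (median -0.92), against 26.1% of all genes. On the exon arrays 5 of 5 were higher (median 1.18), against 19.3% of all genes. Nolc1, a chaperone of small nucleolar RNPs, changed the most on the 430 arrays, while Mybbp1a and Ddx21 changed more than Nolc1 on the exon arrays. Its 430 signal was 11.87, 11.81 and 11.87 at 0 h and 9.97, 9.87 and 9.98 at 24 h. The groups lay 1.82 log2 units apart at their nearest arrays, a 3.75-fold decrease (-1.91 ± 0.06, adjusted p = 6.41e-08). In the exon table it read 8.83, 8.85 and 8.79 at 0 h and 10.13, 9.91 and 9.96 at 24 h. Here all 24 h arrays were the higher ones, by 2.26-fold (1.18 ± 0.09, adjusted p = 0.000496).

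Npm1, nucleophosmin, an abundant nucleolar chaperone, changed the least of this group on the 430 arrays. It gave 13.82, 13.88 and 13.80 at 0 h and 13.81, 13.82 and 13.73 at 24 h on the 430 arrays. These groups overlapped, and the change of -0.05 ± 0.06 was not called (adjusted p = 0.568). A second Npm1 probe set was called lower by a small amount (-0.20 ± 0.06, adjusted p = 0.0287). The RNA-binding protein nucleolin, Ncl, changed by -0.56 on the 430 and 0.62 on the exon arrays. Tcof1, whose product treacle assists RNA polymerase I, changed by -0.86 and 0.46, the Myb-binding protein gene Mybbp1a by -1.40 and 1.27, and the RNA helicase gene Ddx21 by -0.97 and 1.25, all called.

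The box C/D group was called in full on each design. In the 430 data 4 of 4 were lower (median -1.17), against 26.1% of all genes. In the exon data 3 of 3 were higher (median 1.62), against 19.3% of all genes. Nop56, a core scaffold of these particles, read 11.73, 11.70 and 11.70 at 0 h and 9.75, 9.77 and 9.73 at 24 h on the 430 arrays. The 2 groups were tight and far apart, 3.89-fold lower at 24 h (-1.96 ± 0.06, adjusted p = 3.5e-08). Its exon values were 8.94, 8.81 and 9.18 at 0 h and 11.33, 10.94 and 10.80 at 24 h. They were 4.13-fold higher at 24 h with no overlap (2.05 ± 0.17, adjusted p = 0.000604), the highest exon fold of the members. Fbl, fibrillarin, the methyltransferase of the particle, was measured at 12.58, 12.50 and 12.50 at 0 h and at 11.96, 11.82 and 11.92 at 24 h on the 430 design. All 24 h values were lower, by 1.54-fold (-0.63 ± 0.07, adjusted p = 6.71e-05). Nop58, the partner scaffold of Nop56, changed by -1.29 and 1.62, and Rrp9, a protein of the U3 particle, by -1.05 and 1.23, all called.

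In the box H/ACA group, 3 of 4 were lower on the 430 arrays (median -0.96), against 26.1% of all genes. On the exon arrays 2 of 3 were higher (median 0.50), against 19.3% of all genes. Dkc1, dyskerin, the pseudouridine synthase, read 12.06, 12.23 and 12.19 at 0 h and 10.55, 10.47 and 10.52 at 24 h on the 430 design. The 24 h arrays were the lower ones throughout, by 3.13-fold (-1.65 ± 0.07, adjusted p = 2.32e-07). Nop10, the smallest protein of the same particle, was not called on either design. Its 430 signal was 12.81, 12.70 and 12.82 at 0 h and 12.72, 12.76 and 12.74 at 24 h. The groups overlapped and the change of -0.04 ± 0.06 was not called (adjusted p = 0.676). Exon values of Nop10 were 10.90, 10.80 and 10.78 at 0 h and 10.40, 10.54 and 10.84 at 24 h, again overlapping (-0.23 ± 0.13, adjusted p = 0.279). The mean of both Nop10 probe sets on the 430 design changed by 0.019, with the sign turned, and was not called either. Gar1, another partner of dyskerin, changed by -0.89 and 0.79, both called. Nhp2, the remaining partner, was lower on the 430 arrays (-1.03) and called higher on the exon arrays at 0.50 ± 0.12 (adjusted p = 0.0253). That exon call was lost after quantile normalization (adjusted p = 0.121), and in turn without each 0 h array or the second 24 h array (adjusted p from 0.0553 to 0.0848).

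Of the small-subunit processome genes, 11 of 13 were lower on the 430 arrays (median -0.84), against 26.1% of all genes. On the exon arrays 8 of 10 were higher (median 0.96), against 19.3% of all genes. Heatr1, the counterpart of yeast Utp10 and a factor for early processing, was the member that ran against the rest on both designs. Its 430 signal was 10.26, 10.25 and 10.14 at 0 h and 11.73, 11.67 and 11.74 at 24 h. Every 24 h array was higher, by 2.82-fold (1.5 ± 0.07, adjusted p = 2.82e-07), and the other 2 Heatr1 probe sets rose as well (1.39 and 1.18). On the exon design it stood at 9.56, 9.41 and 9.40 at 0 h and at 8.15, 8.12 and 7.93 at 24 h. Every 24 h array was lower, by 2.63-fold (-1.39 ± 0.10, adjusted p = 0.000388). The neighbouring gene Lgals8, on the opposite strand in RefSeq, moved the same way as Heatr1 on each design, and whether probes of 1 gene read RNA of the other was not tested.

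Noc4l, a partner of Nop14 in the processome, was called on the exon arrays only. The probe set that represents it on the 430 arrays gave 10.26, 10.15 and 10.00 at 0 h and 9.90, 10.06 and 9.70 at 24 h. These overlapped, with a change of -0.25 ± 0.11 (adjusted p = 0.0821). The other 3 probe sets of Noc4l were called lower (-1.31, -1.30 and -0.46), and the mean of all 4 changed by -0.83 (adjusted p = 4.14e-06). The change of the representing probe set was also called with array medians removed (adjusted p = 0.0398), without dim features (adjusted p = 0.0477), with a variance trend (adjusted p = 0.0183) and without the second 24 h array (adjusted p = 0.0323). Exon values were 7.69, 7.71 and 7.74 at 0 h and 8.72, 8.45 and 8.62 at 24 h, higher in each 24 h array by 1.84-fold (0.88 ± 0.10, adjusted p = 0.00166).

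Emg1, a methyltransferase of small-subunit RNA, was called on the 430 arrays only. It read 12.28, 12.29 and 12.26 at 0 h and 11.88, 11.87 and 11.78 at 24 h there, a 1.35-fold decrease without overlap (-0.43 ± 0.06, adjusted p = 0.000468). Its exon signal was 9.31, 9.21 and 9.20 at 0 h and 9.37, 9.61 and 9.96 at 24 h. The lowest 24 h array lay only 0.06 above the highest 0 h array, and the change of 0.41 ± 0.16 was not called (adjusted p = 0.12). It was called without the first 24 h array (0.55, adjusted p = 0.0464) and without dim features (adjusted p = 0.0484).

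The other 10 processome members were all called lower on the 430 arrays, between -1.31 for Utp20 and -0.47 for Utp14a. Wdr43 changed by -1.16, Utp15 by -0.95, Imp4 by -0.89, Nop14 by -0.84, Utp18 by -0.84, Wdr75 by -0.84, Imp3 by -0.70 and Ddx10 by -0.65. Wdr43, Wdr75 and Utp15 belong to the subcomplex that binds the precursor first, Imp3 and Imp4 work with the U3 RNA, and Ddx10 is an RNA helicase. All 7 of these with exon values were called higher there, by 1.22 for Utp20, 1.14 for Ddx10, 1.10 for Imp3, 1.08 for Utp15, 1.00 for Nop14, 0.93 for Utp14a and 0.85 for Imp4.

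The late factors of the small subunit were called in full on both designs. In the 430 data 5 of 5 were lower (median -1.27), against 26.1% of all genes. In the exon data 5 of 5 were higher (median 1.19), against 19.3% of all genes. Rrp12, which serves the export of subunit precursors, had the largest 430 change of all members. It read 9.17, 9.14 and 9.15 at 0 h and 6.81, 6.90 and 6.94 at 24 h. The nearest arrays of the 2 groups were 2.20 log2 units apart, and the fall was 4.83-fold (-2.27 ± 0.06, adjusted p = 2.43e-08). Its exon values were 6.93, 6.90 and 6.85 at 0 h and 8.64, 8.47 and 8.52 at 24 h, higher at 24 h by 3.14-fold without overlap (1.65 ± 0.08, adjusted p = 0.000122).

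Bysl, bystin, a factor of small-subunit precursors in the nucleus, changed the least of this group on the 430 arrays. Its values were 10.19, 10.28 and 10.31 at 0 h and 9.30, 9.09 and 9.32 at 24 h. They did not overlap and were 2.03-fold lower at 24 h (-1.02 ± 0.08, adjusted p = 9.54e-06). Exon values were 7.65, 7.32 and 7.40 at 0 h and 8.70, 8.64 and 8.61 at 24 h, all higher at 24 h by 2.28-fold (1.19 ± 0.11, adjusted p = 0.000874). Tsr1, a GTPase-like factor whose promoter is printed above, changed by -1.52 and 1.60. Ltv1 changed by -1.27 and 1.08, and Nob1, the nuclease of the last cut of the small-subunit RNA, by -1.09 and 0.97, all called.

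Large-subunit assembly was the biggest group, and all 22 measured members were lower on the 430 arrays (median -1.39), 16 of them at least 2-fold. Of all genes, 26.1% were called lower there and 5.41% at least 2-fold. In the exon data 17 of 21 were higher (median 1.09), 12 at least 2-fold, where 19.3% and 4.92% of all genes were. Ppan, a factor of early large-subunit particles, changed the most on the 430 arrays. It gave 9.87, 9.71 and 9.88 at 0 h and 7.97, 7.96 and 7.99 at 24 h, a 3.6-fold decrease with no overlap (-1.85 ± 0.07, adjusted p = 1.14e-07). Exon values were 7.42, 7.40 and 7.55 at 0 h and 8.80, 8.92 and 9.22 at 24 h, where all 24 h arrays were higher, by 2.88-fold (1.53 ± 0.13, adjusted p = 0.000652).

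Pes1, Bop1 and Wdr12 form the PeBoW complex of large-subunit processing, and their changes differed in size. Bop1 changed by -1.69 and 1.20, both called. Wdr12 read 11.01, 10.88 and 10.86 at 0 h and 10.54, 10.57 and 10.52 at 24 h on the 430 arrays. It was 1.30-fold lower without overlap (-0.37 ± 0.07, adjusted p = 0.00166), the smallest called change of the members on that design. Its other 2 probe sets were not called (-0.10 and 0.02). The second of these averaged 2.95 at 0 h and 2.98 at 24 h, close to the lowest value on that design (2.43). In the exon table Wdr12 read 8.83, 8.70 and 9.10 at 0 h and 9.31, 9.21 and 9.20 at 24 h. The groups did not overlap but lay only 0.09 apart, and the change of 0.36 ± 0.12 was not called (adjusted p = 0.0874). It was called without the third 0 h array (0.47, adjusted p = 0.0296), without dim features (adjusted p = 0.0343) and in the fit over gene means (adjusted p = 0.0416).

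For Pes1 the 430 values were 10.66, 10.58 and 10.54 at 0 h and 10.10, 10.10 and 10.12 at 24 h. All 24 h arrays were lower, by 1.40-fold (-0.48 ± 0.06, adjusted p = 0.000261), and its second probe set changed by -0.10 and was not called. Exon values of Pes1 were 7.85, 7.92 and 7.69 at 0 h and 8.13, 7.90 and 8.16 at 24 h. They overlapped, with a change of 0.24 ± 0.11 (adjusted p = 0.192).

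Rrs1, which helps to bring a small RNA particle into the large subunit, was clear on 1 design only. Its 430 values were 12.23, 12.37 and 12.23 at 0 h and 10.48, 10.61 and 10.47 at 24 h, a 3.38-fold decrease with no overlap (-1.76 ± 0.07, adjusted p = 2.11e-07). In the exon table it read 7.40, 7.34 and 7.52 at 0 h and 7.33, 7.40 and 7.43 at 24 h. These overlapped (-0.03 ± 0.09, adjusted p = 0.855), and without the third 0 h array the change was 0.020, with the sign turned and still not called. Mrto4, a factor related to the stalk protein of the large subunit, read 5.22, 5.09 and 4.78 at 0 h and 4.94, 5.92 and 5.38 at 24 h on the exon arrays. These overlapped widely and the change of 0.38 ± 0.26 was not called (adjusted p = 0.383). The Mrto4 signal was dim, with means of 5.03 at 0 h and 5.41 at 24 h where the exon array medians were 5.39 to 5.42.

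Among the helicases and GTPases of the group, Ddx56 changed by -1.56 and 1.36, Ddx27 by -1.10 and 0.86, and Ddx18 by -1.12 on the 430 arrays. Gnl3, nucleostemin, which is known from stem cells, changed by -1.32 and 1.49. Gnl2 changed by -0.59 and 0.65, and its exon call (adjusted p = 0.0163) was lost in turn without the first or second 0 h array or the second 24 h array (adjusted p from 0.0561 to 0.0595). Grwd1, the counterpart of a yeast chaperone of a large-subunit protein, changed by -1.72 and 1.35. The RNA methyltransferase gene Nop2 changed by -1.57 and 1.09, and Nle1, a remodelling factor, by -1.46 and 0.99; promoters of these 3 are printed above. Rrp1b changed by -1.74 and 1.83, Rrp15 by -1.5 and 1.77, Nop16 by -1.49 and 1.03, and Wdr74 by -1.46 and 1.54. Smaller 430 changes were those of Ebna1bp2 (-1.02, exon 1.14), Nip7 (-0.84, exon 1.36), Brix1 (-0.64, exon 0.99) and Noc3l (-0.46, exon 0.84). Noc2l changed by -1.33 on the 430 arrays. All changes in this paragraph were called.

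Several probe sets read the same gene for 37 of the 54 members on the 430 arrays. Of 107 probe sets, 95 were called lower, 4 higher and 8 were not called. In 31 of the 37 genes all probe sets were called like the one that represents the gene. Of the 4 called higher, 3 were those of Heatr1 and the fourth was the second probe set of Nip7 (0.32, adjusted p = 0.0123), the only member with calls in both directions. For Nolc1 the other 2 probe sets fell further (-2.52 and -2.13), and for Ncl the 5 probe sets ran from -1.35 to -0.56.

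**Figure D3:**
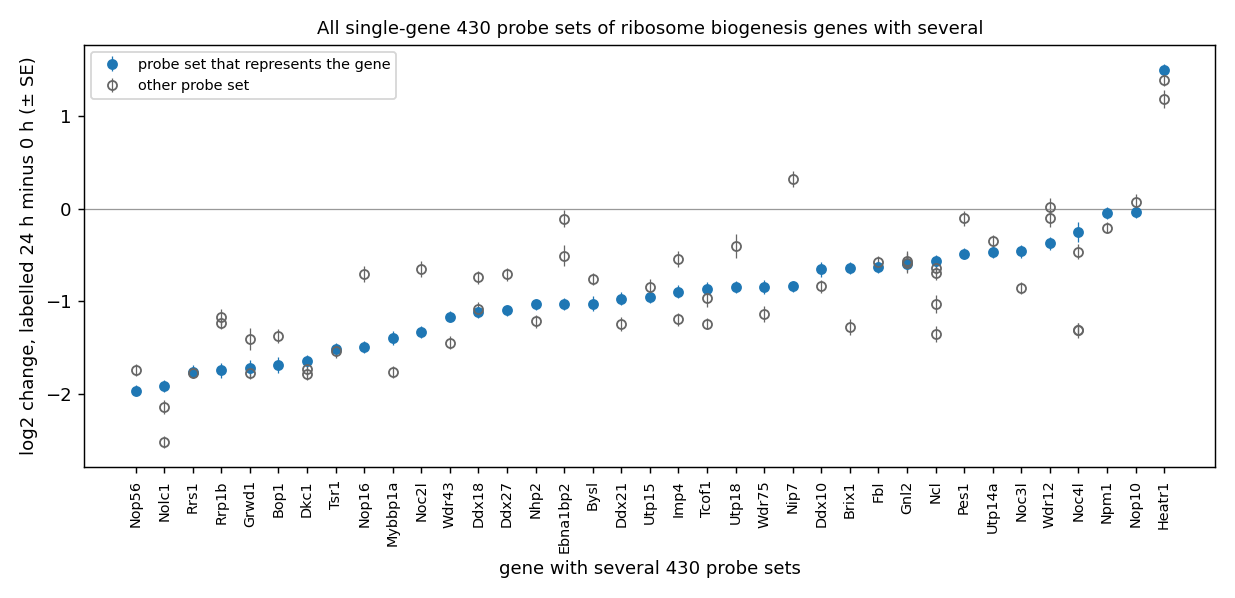
Log2 change (24 h minus 0 h as labelled, ± standard error) of every 430 probe set with 1 gene symbol, for the 37 ribosome biogenesis genes with several, ordered by the representing probe set (filled) with the others open. Most points lie below 0; the 3 of Heatr1 lie between 1.18 and 1.5, Nip7 has 1 at 0.32, and the open points of Noc4l lie below its filled one.

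The question of how well the designs match in size was put to the 46 members on both. All 40 members called on both designs were called in opposite directions, as were 3713 of the 3770 genes called on both in the whole series. The 430 change minus the exon change was called below 0 for 44 members (31.7% of all joined genes were) and above 0 for Heatr1, while Nop10 was not called. A member lower on 1 design and higher on the other gives such a difference, so this count restates the opposite directions. The largest differences were those of Nop56 (-4.01), Rrp12 (-3.92) and Rrp1b (-3.57), and the smallest those of Nop10 (0.19), Pes1 (-0.72) and Wdr12 (-0.74).

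With the exon sign turned, the sizes of most members could not be told apart. The median ratio of the exon size to the 430 size was 1.00, and the 430 size was the larger in 23 of 46. These values and the sums are unscaled. Over all joined genes the median absolute deviation of the 430 changes was 1.15 times that of the exon changes. The sum of the changes had a median of 0.02 and was called for 14 members, or 9 below 0 and 5 above 0, where 22.8% of all joined genes were called; for the other 32 a difference in size was not detectable with these arrays. Rrs1 had the largest sum (-1.79 ± 0.11, adjusted p = 1.09e-07), followed by Nolc1 (-0.73 ± 0.11, adjusted p = 0.000322) and Noc4l (0.63 ± 0.14, adjusted p = 0.00652). Wdr12 (-0.01), Emg1 (-0.02) and Imp4 (-0.04) had the smallest. Across the 46 members the changes of the designs correlated at r = -0.77 and rho = -0.69, and without Heatr1 at -0.64 and -0.67, which describes genes of the same arrays.

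**Figure D4:**
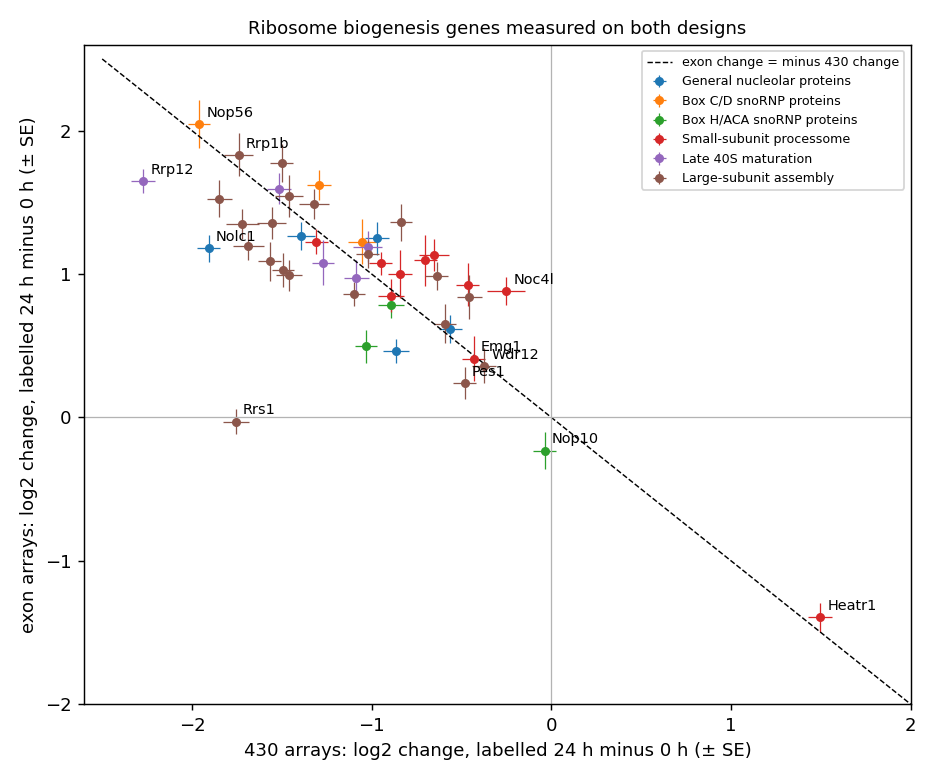
Log2 change on the exon arrays against that on the 430 arrays (both 24 h minus 0 h as labelled, ± standard error) for the 46 genes measured on both, coloured by role; on the dashed line the exon change is equal in size and opposite in sign. Most genes lie at the upper left near the line, Heatr1 at the lower right on it, and Rrs1 well below it at -1.76 and -0.03.

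Of the other ribosome biogenesis genes, a list of 105 drawn from the same steps, 84 of 104 measured were lower, 5 higher and 15 not called on the 430 arrays (median -0.66). On the exon arrays 66 of 88 were higher, 1 lower and 21 not called (median 0.72). Of all genes, 26.1% were called lower and 26.0% higher on the 430 arrays, and 10.8% lower and 19.3% higher on the exon arrays. In the processome, the RNA acetyltransferase gene Nat10 changed by -1.61 (exon 1.29) and Rcl1 by -1.46 (exon 1.33), while Utp23 (0.25) and Nol7 (0.20) were higher on the 430 arrays. Of the late small-subunit factors, Tsr2 changed by -0.97 and Tsr3 by -0.67. Of the large-subunit factors, Urb1 changed by -1.47 and Ftsj3 by -1.40, whereas Pelp1 (1.16, exon -0.39), Sdad1 (0.59) and Zfp622 (0.21) were higher. Ruvbl2, a helicase that helps to assemble box C/D particles, changed by -2.05 (exon 2.06), and the dyskerin chaperone Shq1 by -1.46 (exon 1.94). The exosome subunit genes Exosc5 and Exosc2 changed by -1.22 and -1.14.

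RNA polymerase I and its factors, which make the precursor, were lower in 10 of 12 and higher in 1 (Taf1b, 0.44) on the 430 arrays, and higher in 6 of 7 on the exon arrays. Among all genes, 26.1% were called lower and 26.0% higher on the 430 arrays, and 19.3% higher on the exon arrays. The large subunits Polr1b and Polr1a changed by -1.67 and -1.54 (exon 1.36 and 1.28). Myc read 11.93, 11.95 and 11.997 at 0 h and 10.08, 10.13 and 10.15 at 24 h on the 430 arrays. It was 3.59-fold lower without overlap (-1.84 ± 0.06, adjusted p = 5.86e-08). Exon values of Myc were 10.04, 10.14 and 10.21 at 0 h and 11.15, 11.20 and 11.19 at 24 h, or 2.08-fold higher (1.05 ± 0.08, adjusted p = 0.00052). Of the 11 MYC network genes, 6 were lower and 1 higher on the 430 arrays, among them Mlx (-1.32), while Mxd4, a repressor that competes with MYC for MAX, was higher (0.85). The 430 shares over all genes were 26.1% lower and 26.0% higher. On the exon arrays 2 of 10 were higher, Myc and Mlx, and 2 lower, Mxd4 (-0.91) and Mnt (-0.41). The exon shares over all genes were 19.3% higher and 10.8% lower.

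Genes of the ribosomal proteins themselves had a median change near 0 on the 430 arrays and of 0.42 on the exon arrays. Of 79 cytosolic ribosomal protein genes, 44 had a 430 feature of their own, of which 7 were called lower, 3 higher and 34 were not called, with a median of -0.05. Of all genes on that design, 26.1% were called lower and 26.0% higher. Rpl12 changed by -2.06, and Rpl37 (0.62, exon 2.44), Rps16 (0.50) and Rps20 (0.17) were the higher ones. In the exon data 7 of 16 were higher and 1 lower (median 0.42), where 19.3% and 10.8% of all genes were (median 0.01). These genes have many near-identical copies in the genome, so their values are uncertain, and the difference between the lists was not tested.

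**Figure D5:**
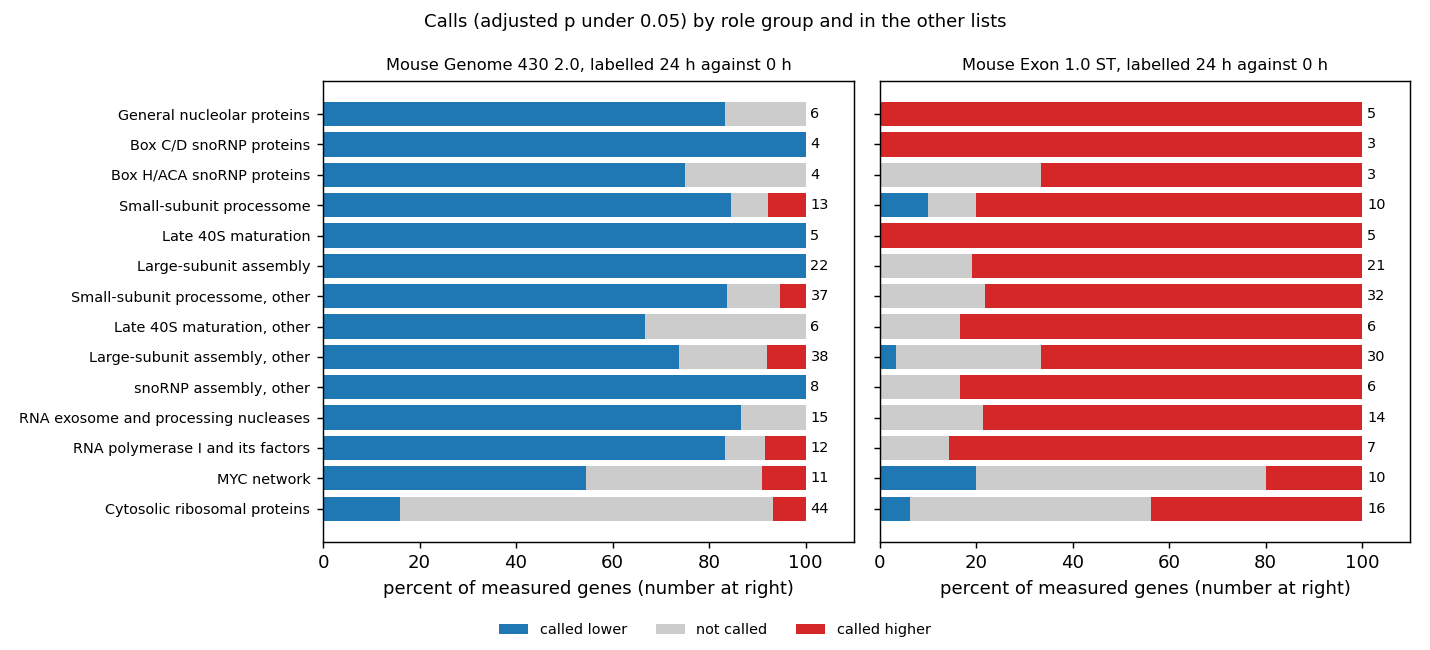
Percent of the measured genes of each role group and of the other lists called lower (blue), not called (grey) and called higher (red) on each design, arrays labelled 24 h against 0 h, with the number measured at the right of each bar. The role groups are mostly blue on the 430 arrays and mostly red on the exon arrays. Of the cytosolic ribosomal protein genes, 34 of 44 are grey on the 430 arrays and 7 of 16 are red on the exon arrays.

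Markers of proliferation moved with the members. All 11 measured were lower on the 430 arrays labelled 24 h, with a summed linear signal of 28180 to 28387 against 56617 to 58544 at 0 h. In the exon data 8 of 9 were higher, with 7145 to 7894 at 24 h against 3022 to 3405 at 0 h. Of the progenitor markers, 3 of 5 were called lower on the 430 arrays (summed signal 1739 to 1838 against 15741 to 15937). On the exon arrays 3 of 5 were called higher (4151 to 4528 against 683 to 770). The other 2 on each design were not called and had the opposite sign, at 0.14 and 0.19 on the 430 arrays and -0.10 and -0.08 on the exon arrays. Cd34 lay below the array median on both designs and Flt3 on the exon design. Of the mast cell markers 2 of 5 were lower and 1 higher on the 430 arrays (340 to 373 against 615 to 653), with Cpa3, Fcer1a and Tpsb2 below the array median. On the exon arrays 1 of 5 was higher (254 to 283 against 125 to 137), with those 3 and Ms4a2 below the median. Their part in the members' changes was not tested. Erythroid and megakaryocyte markers (337 to 345 at 0 h, 343 to 367 at 24 h on the 430 arrays) and B and T cell markers (292 to 313 and 323 to 372) stayed at low sums, with 2 of 5 and 1 of 6 called higher there and none of 4 or of 6 called on the exon arrays. Over all genes, 26.1% were called lower and 26.0% higher on the 430 arrays. The exon shares were 10.8% lower and 19.3% higher. No marker list was tested against these shares.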

How the data were processed

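RNA of PUER cells was measured on 12 arrays. The authors deposited log2 signals in 1 table per design, made with Affymetrix Expression Console per the submitters' processing notes. These notes name mm8 for the exon arrays, and how probes were summarized was not given in the sources used here. Per the labels' protocols, sense-strand DNA was labelled from 300 ng of total RNA (430) or from 1.5 µg after reduction of ribosomal RNA (exon); whether this describes the 430 arrays, whose usual target is antisense RNA, was not tested. Arrays have no read depth, and the number of arrays limits the precision. Without detection calls, a fold against a dim group may be too small.

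Symbols came from the platform annotation, updated through Entrez identifiers to RefSeq (GRCm38.p6). A gene is represented by its single-symbol feature with the highest mean over the 6 arrays; 1 feature per design that names a member together with other genes was left out. Arrays labelled 24 h and 0 h were compared within each design with limma 3.58.1 in R 4.3.3 (lmFit, eBayes, two-sided, Benjamini-Hochberg over all features of the design), tested on simulated data. The designs were compared in 1 limma model over the 13356 joined genes. With 3 arrays against 3, a permutation test of 1 gene cannot go below p = 0.1. The members and lists were chosen with earlier results of these data known.

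Every member is named. Array values are given for the largest and smallest 430 change in each role group and for up to 6 members not called or against the rest, the largest changes first. The members with the 3 largest and 3 smallest differences or sums between designs are named; values of Rrs1 were added after its sum was seen. Of the other lists, up to 2 genes with the largest 430 change and up to 3 against most are named, and Myc is given by array. Alternatives were quantile normalization, array medians removed, no dim features, a robust variance trend, a block for the replicate number, 1 array left out in turn, gene means, a change of at least 1, array weights and an exon rescaling.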

Additional observations from a re-analysis of the deposited data

Results flagged for a closer look

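For 45 of the 46 ribosome biogenesis genes on both designs, the change between the arrays labelled 24 h and 0 h differed between the designs, by limma's test of the 430 change minus the exon change. The largest differences were those of Nop56 (-4.01 log2 units), Rrp12 (-3.92) and Rrp1b (-3.57), and the smallest called ones those of Pes1 (-0.72) and Wdr12 (-0.74). Of these 45, 44 were called below 0, where 31.7% of all joined genes were, and Heatr1 was called above 0. In the whole series, 3713 of the 3770 genes called on both designs were called in opposite directions. The counts and the order of the differences take the exon labels as given. They restate the opposite directions of the designs and are no further result about the members. With the exon sign turned, 14 of the 46 were called, where 22.8% of all joined genes were. Rrs1 (-1.79), Nolc1 (-0.73) and Noc4l (0.63) had the largest sums.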

How the results depend on the processing

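The 2 designs run in opposite directions, so the direction of every change depends on which labels hold. Of the values computed for single members under the alternatives, 1188 kept their direction and side of the threshold, 11 gained a call, 10 lost one and 2 changed sign without a call: Nop10 on the 430 arrays (0.019 over gene means) and Rrs1 on the exon arrays (from -0.070 to 0.020 as each array was left out). The causes were not tested. Of the set's counts and medians, 104 stayed within a set margin of the main value and 6 moved beyond it. The 430 median was -0.96 after quantile normalization, -1.11 with array medians removed and -1.01 over gene means, and the exon median 0.93 after quantile normalization. With a log2 change of at least 1 required, 30 members were lower on the 430 arrays and 27 higher on the exon arrays. The exon count, against 40 without this requirement, still lay within the margin. Leaving out 1 array in turn gave 430 medians from -1.07 to -1.03, exon medians from 1.02 to 1.14, 50 to 51 members lower on the 430 arrays, 38 to 41 higher on the exon arrays, 45 to 46 with a called difference and 10 to 19 with a called difference in size. Without dim features the median of all genes moved by over 0.1, from 0.06 to -0.04 on the 430 design and from 0.01 to 0.13 on the exon design.

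No pairing by replicate number was visible, and the labels do not state one. Deviations of same-numbered arrays correlated at -0.05, 0.04 and 0.13 on the 430 design and at -0.03, 0.01 and -0.05 on the exon design. Differently numbered 430 arrays ran from -0.17 to 0.13. With the replicate block, 51 members were lower on the 430 arrays, 38 higher on the exon arrays, 45 had a called difference and 12 a called difference in size; Noc4l was called on the 430 arrays (adjusted p = 0.0408), and Nhp2 (adjusted p = 0.0776) and Gnl2 (adjusted p = 0.0612) were not called on the exon arrays.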

Other observations

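Lgals8, a galectin gene that stands beside Heatr1 in RefSeq on the opposite strand, was looked at after the values of Heatr1 were seen. Its 2 probe sets on the 430 arrays were higher at 24 h as labelled (1.54 ± 0.07 and 1.28 ± 0.07, adjusted p = 2.53e-07 and 7.2e-07), close to the 3 probe sets of Heatr1 (1.5, 1.39 and 1.18). On the exon arrays Lgals8 changed by -1.08 ± 0.14 (adjusted p = 0.00282) and Heatr1 by -1.39 ± 0.10. These are values of limma's fit on 3 arrays a group.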
